A study of Mus musculus with 20 samples.

Results

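Transcript levels in the prostate of C57BL/6J mice were set against those of BALB/c mice, on 8 of the 20 arrays of a series that covers 5 inbred strains. The 8 arrays were all those labelled with either strain, 4 pools of C57BL/6J (from here C57BL/6) and 4 pools of BALB/c, and no array was left out. Each pool held RNA from 3 mice aged 8 to 9 weeks, which makes 12 mice a strain, and equal amounts of RNA from the dorsal, lateral, ventral and anterior lobes were combined in it. The labels give the mice no transgene and no treatment, and the question is how far normal prostates of the strains differ. Per the methods, the C57BL/6J mice came from the Jackson Laboratory and the BALB/c mice from Charles River. Strain and supplier therefore cannot be told apart in these arrays. Amplified RNA of each pool was hybridized to a spotted cDNA array beside a common reference made from the RNA of all samples of all strains, each in its own dye.

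The mouse prostate is a set of paired lobes whose luminal epithelium makes secretory proteins under the control of androgen, and the seminal vesicles, which lie against the anterior lobes, make the abundant proteins from which the copulatory plug forms. Polyamines are made in the prostate in unusually large amounts, and ornithine decarboxylase and spermine-binding protein belong to that activity. C57BL/6 and BALB/c also differ in known inherited traits, among them the haplotype of the major histocompatibility complex (b in C57BL/6 and d in BALB/c).

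Every value below is a log2 ratio of sample over common reference, or a difference between such ratios, C57BL/6 minus BALB/c, in which a positive number means a higher level in C57BL/6. An element is a spot on the array, and where a gene had several, the most complete of them stood for it. Because a ratio carries no absolute level, levels of different genes are not compared and the labelled tissue could not be checked by the level of its markers; elements were present for 14 of 22 listed genes of prostate secretory proteins. In these tissue extracts, fewer cells of a type and less RNA per cell cannot be told apart. The arrays held 11223 to 11251 measured values each, with medians between -0.00665 and 0.00944. Pools 1 and 4 of both strains were labelled with Cy3 and pools 2 and 3 with Cy5, so that the dye was balanced within each strain. The number of arrays limits the precision, and the median 95% interval of a difference was 0.288 wide on either side.

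In all, 311 of 11159 elements (2.79%) differed between the strains at an adjusted p under 0.05 by limma's moderated test, 179 of them higher in C57BL/6 and 132 higher in BALB/c. Among 5820 named genes 181 (3.11%) were called, 99 higher in C57BL/6 (1.7%) and 82 higher in BALB/c (1.41%). The smallest called change was 1.32-fold, the median 1.76-fold and the largest 97.5-fold. Differences over 2-fold were found for 37 called genes higher in C57BL/6 and 25 higher in BALB/c, and differences over 4-fold for 7 and 8. The pools of the strains did not overlap for 179 of the 181 called genes (3.08% of all genes tested), and, called or not, they did not overlap for 10.7% of all genes tested. All 311 called elements had the same sign in the Cy3 arrays and in the Cy5 arrays, as did 67.3% of all elements tested. For the 308 called elements whose pools did not overlap, this follows from the lack of overlap. The count is therefore no separate check of the dye. The number of elements called without BALB/c pool 4 was 196, without BALB/c pool 2 it was 200 and without C57BL/6 pool 1 it was 206.

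Many genes were measured by several elements. Pairs of elements of the same gene were most often 192 numbers apart, 604 of 3119 pairs against 35 at the next most common spacing, and such pairs correlated over the arrays at a median of 0.7, against 0.249 for other pairs. Pairs at this spacing are called repeated spots here, although the layout of the array is not given in the sources used here. Of 25 further elements of called genes at that spacing, 25 had the same sign as the representing element and 12 were called. Of 63 at other spacings, from 40 genes, 45 had the same sign, 22 were called in the same direction and 0 in the opposite direction.

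**Figure D1:**
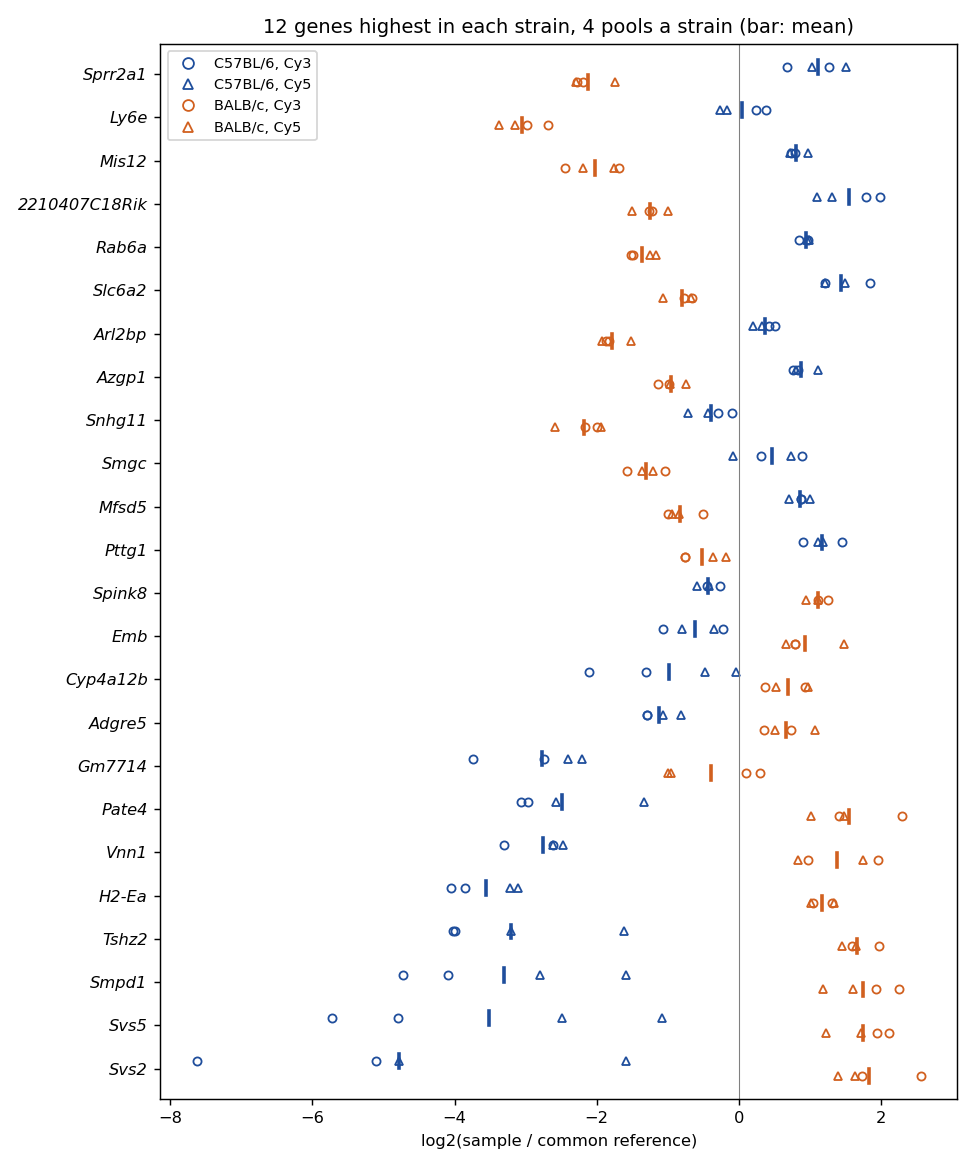
log2 ratio of sample over common reference in each pool for the 12 genes with the largest called difference in each direction, C57BL/6 in blue and BALB/c in orange, with circles for Cy3, triangles for Cy5 and a bar at the mean of 4 pools. The genes were chosen among those whose pools do not overlap between the strains, so that their separation is set by the choice. The C57BL/6 pools of Svs2 spread from -7.63 to -1.58.

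**Figure D2:**
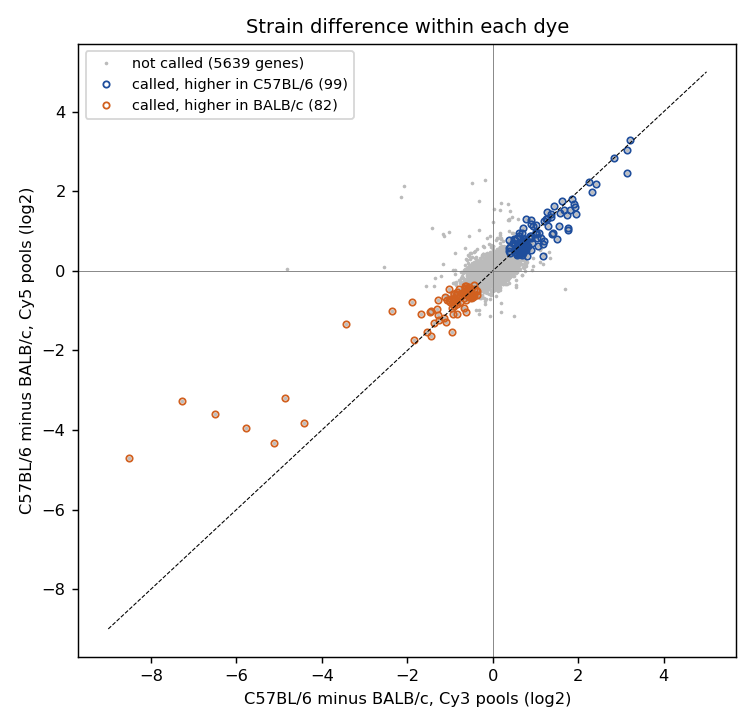
Difference between C57BL/6 and BALB/c (log2) in the Cy3 pools on the x axis and in the Cy5 pools on the y axis, 1 point a gene, with called genes coloured by direction and the dashed line marking equal differences. All 181 called genes lie in the quadrants where both dyes give the same sign, which is fixed for the 179 whose pools do not overlap.

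Of the named genes, Svs2 and Svs5 of the seminal vesicle secretions showed the largest differences, both higher in BALB/c, while 6 of the 9 measured genes of these secretions were not called. Svs2 encodes a major protein of the copulatory plug. In C57BL/6 its log2 ratio was -7.63, -1.58, -4.79 and -5.11 in pools 1 to 4, and in BALB/c it was 2.56, 1.64, 1.39 and 1.73. The C57BL/6 pools lay far apart from each other and all lay below the BALB/c pools, and the difference was -6.61 (SE 0.95, adjusted p = 0.00302), or 97.5-fold. The other 4 elements of Svs2, none at the spacing of repeated spots, gave differences between -6.39 and -5.50, and all were called. Svs5, a further seminal vesicle secretory protein, stood at -5.73, -1.08, -2.49 and -4.79 in C57BL/6 and at 2.11, 1.71, 1.23 and 1.94 in BALB/c. Pools 1 and 4 were again the lowest and pool 2 the highest of C57BL/6, and the difference was -5.27 (SE 0.81, adjusted p = 0.00451). With a robust estimate of the spread neither was called (adjusted p = 0.0504 for Svs2 and 0.0616 for Svs5). The difference of Svs2 was -8.52 in the Cy3 pools and -4.70 in the Cy5 pools, and that of Svs5 was -7.28 and -3.26.

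Svs2 and Svs5 belong to a family that lies in a cluster on chromosome 2, and the 250 bases before the start of each, from RefSeq on GRCm38.p6, are shown because these members of 1 cluster had the largest differences of all named genes. This is the reference sequence, which comes from C57BL/6J, and not a sequence of the animals measured. Capitals mark the hexamer AGAACA or its complement TGTTCT, which is part of the element bound by androgen and glucocorticoid receptors, searched on both strands, and TATAAA, searched on the gene's strand in the last 50 bases; the motifs do not overlap.
Svs2, minus strand, chr2:164238342-164238591: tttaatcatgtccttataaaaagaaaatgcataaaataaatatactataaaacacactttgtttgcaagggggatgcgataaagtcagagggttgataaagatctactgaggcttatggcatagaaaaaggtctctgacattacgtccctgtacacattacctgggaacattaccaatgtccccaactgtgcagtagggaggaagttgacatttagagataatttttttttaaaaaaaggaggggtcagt
Svs5, plus strand, chr2:164332515-164332764: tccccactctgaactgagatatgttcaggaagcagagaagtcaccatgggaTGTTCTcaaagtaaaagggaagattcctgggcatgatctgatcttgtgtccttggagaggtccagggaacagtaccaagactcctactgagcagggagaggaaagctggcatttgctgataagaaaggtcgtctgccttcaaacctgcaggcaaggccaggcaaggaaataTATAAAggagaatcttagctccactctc
The window of Svs5 held TGTTCT at position -199 and TATAAA at -28 from the start, and that of Svs2 held neither in the stretch searched. Of the 24 genes with the largest differences 15 matched a RefSeq promoter. Of 32851 RefSeq promoters of the same length, 16.1% held the hexamer and 2.63% held TATAAA in the last 50 bases. With the first promoter of each of 4583 genes tested, these shares were 10.8% and 2.47%.

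Other seminal vesicle genes were spread within C57BL/6. Of 9 measured genes of the list 3 were called, all higher in BALB/c (Svs2, Svs5 and Pate4), and the median difference was -0.14, beside -0.014 for all genes tested. Pate4, a secreted protein of the Ly6 and uPAR domain type that the seminal vesicle makes, was at -3.06, -1.34, -2.57 and -2.97 in C57BL/6 and at 2.30, 1.48, 1.02 and 1.41 in BALB/c, a difference of -4.04 (SE 0.37, adjusted p = 0.000115). Svs4, a small basic secretory protein, stood at -3.12, 1.38, 0.73 and -3.60 in C57BL/6 against 1.34, 1.24, 0.79 and 1.58 in BALB/c, and its difference of -2.39 did not pass (adjusted p = 0.295). Within C57BL/6 the Cy5 pools 2 and 3 of Svs4 were near the level of BALB/c, whereas the Cy3 pools 1 and 4 were far below it. Svs3b was at -1.55, 2.57, 0.64 and -3.22 in C57BL/6 and at -0.75, -0.14, -0.38 and 0.26 in BALB/c. Svs6 was at -1.56, 2.32, 1.09 and -2.20 in C57BL/6 and at -0.20, -0.036, -0.84 and 0.57 in BALB/c. For both, C57BL/6 pools 1 and 4 lay below all BALB/c pools and pools 2 and 3 above all of them, so that the means were close (differences -0.14 and 0.036). The difference was 0.37 for Svs1, -0.038 for Sva and 0.99 for Spink1, a trypsin inhibitor also made in the prostate, none of them called.

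The median of the 9 genes in each pool was -1.56, 0.34, 0.30 and -2.97 in C57BL/6 and 0.54, -0.015, -0.16 and 0.57 in BALB/c. The C57BL/6 medians spanned a wider range than those of BALB/c. Pools of other strains were spread as well for Svs2 and Svs5. The SD of Svs2 was 2.95 in 129X1/Sv, 3.22 in FVB/N and 1.55 in DBA/2, beside 2.48 in C57BL/6 and 0.51 in BALB/c. That of Svs5 was 2.45, 2.29 and 0.86, beside 2.12 and 0.38. In C57BL/6 the pools with low medians were those labelled with Cy3. Tissue of the seminal vesicle left on the anterior lobe would bring these transcripts, and its part in the result was not tested. The dye of the pools moves with the same split, and its part was not tested.

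**Figure D3:**
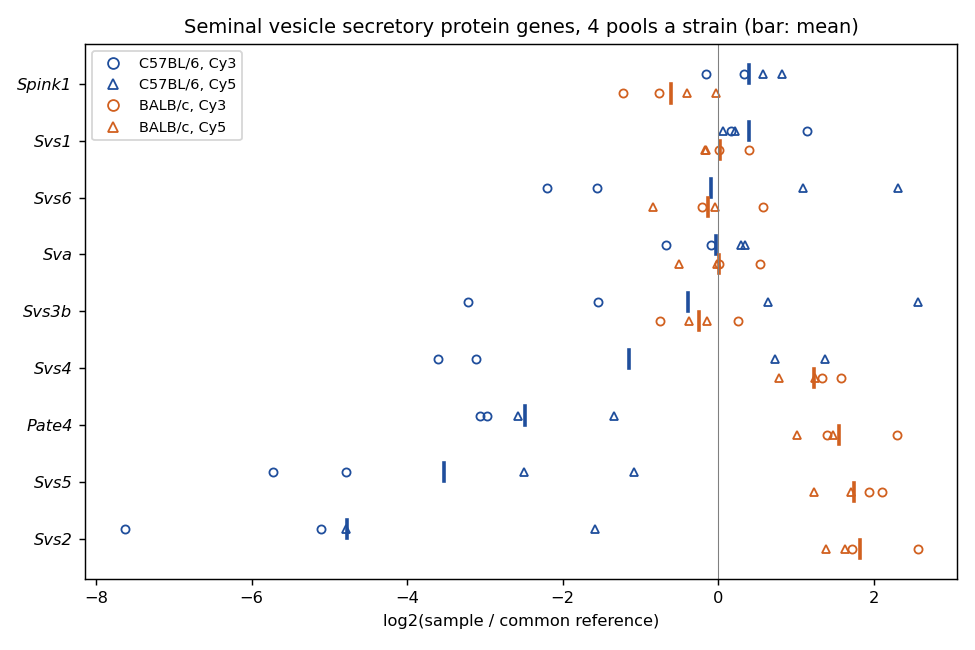
log2 ratio of sample over common reference in each pool for the 9 measured genes of seminal vesicle secretory proteins, with strains, dyes and means marked as in the plot of the 24 largest differences. BALB/c pools stay between -1.22 and 2.56, while the C57BL/6 pools of Svs3b, Svs4 and Svs6 split into low Cy3 and high Cy5 pools.

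Elements annotated as Smpd1, an acid sphingomyelinase of lysosomes, and as Tshz2, a zinc finger transcription factor, followed the same course. The Smpd1 element was at -4.09, -1.58, -2.81 and -4.73 in C57BL/6 and at 2.25, 1.61, 1.19 and 1.93 in BALB/c (difference -5.05, SE 0.55, adjusted p = 0.000471). The Tshz2 element was at -4.02, -1.62, -3.21 and -3.99 in C57BL/6 and at 1.98, 1.65, 1.44 and 1.60 in BALB/c (difference -4.87, SE 0.43, adjusted p = 0.000102). In both, pool 2 was the highest of C57BL/6, as for Svs2 and Svs5. Over all 20 arrays, which share the reference and its dye effects, their values correlated with those of Svs2 at 0.958 and 0.978, beside 0.977 for Svs5 and 0.953 for Pate4. The correlation with Svs2 was 0.732 for Svs4, 0.261 for Svs3b and 0.261 for Svs6. For genes outside the secretions it was 0.718 for Vnn1 and 0.327 for H2-Ea. All of these but Svs4, Svs3b and Svs6 were picked for a large difference between C57BL/6 and BALB/c, whose arrays are among those correlated. Their correlations with Svs2 are therefore set in part by that choice and are no separate evidence of a shared course. Further elements of Tshz2 differed by -0.23 and -0.21 and were not called, and the numbers of the Smpd1 and Svs5 elements are adjacent (8773 and 8774). The differences of these elements are therefore given for the elements and not as levels of Smpd1 and Tshz2.

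Prostate secretory proteins were called in both directions. Of 14 measured genes, 3 were higher in C57BL/6 and 1 in BALB/c, beside 1.7% and 1.41% of all genes, with a median difference of -0.020. The counts of the groups below stand beside the same shares, or 3.11% for both directions together. Azgp1 encodes zinc-alpha-2-glycoprotein, a secreted protein with the fold of a class I histocompatibility molecule. Its log2 ratio was 0.83, 0.80, 1.11 and 0.75 in C57BL/6 and -1.14, -0.75, -0.98 and -0.98 in BALB/c. The pools of each strain lay close together and far from those of the other, at 1.84 (SE 0.12, adjusted p = 1.3e-05), or 3.57-fold. Sbp encodes spermine-binding protein, a secretory product of the ventral lobe that depends on androgen. It stood at 0.74, 0.82, 0.98 and 0.54 in C57BL/6 and at -0.44, -0.57, -0.51 and -0.99 in BALB/c, a difference of 1.40 (SE 0.14, adjusted p = 0.000293), and its other elements differed by 1.85 and 1.54. Smgc, named for a mucin-like protein of the salivary gland, was at 0.31, 0.73, -0.078 and 0.89 in C57BL/6 and at -1.58, -1.21, -1.37 and -1.05 in BALB/c (difference 1.76, SE 0.20, adjusted p = 0.000645). In the other direction Spink8, a Kazal-type inhibitor of serine proteases, was at -0.26, -0.59, -0.42 and -0.45 in C57BL/6 and at 1.11, 1.12, 0.94 and 1.25 in BALB/c (difference -1.54, SE 0.11, adjusted p = 2.24e-05). Probasin (Pbsn), an androgen-dependent protein whose promoter drives many prostate transgenes, was at -0.79, -0.11, -0.22 and -0.28 in C57BL/6 and at 0.039, 0.78, 0.87 and -0.31 in BALB/c, and its difference of -0.70 did not pass (adjusted p = 0.244). All other elements of Pbsn pointed the same way, from -0.92 to -0.49, and 1 of them was called, at -0.78 (adjusted p = 0.0494).

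Among 15 measured androgen-regulated genes, 3 were called, Azgp1, Sbp and Odc1, all higher in C57BL/6, beside 1.7% of all genes called in that direction. The median difference of the list was 0.11. Azgp1, Sbp and Odc1 are also among the genes the study chose from this series, so that their direction is not independent of it. Odc1, the rate-limiting enzyme of polyamine synthesis, had ratios of 0.78, 0.82, 0.60 and 0.59 in C57BL/6 and -0.20, -0.50, -0.43 and -0.21 in BALB/c. The difference was 1.03 (SE 0.11, adjusted p = 0.000463), and 3 further elements of Odc1 gave 1.32, 1.12 and 1.30, the 1.32 at the spacing of repeated spots. Of the 12 genes that were not called, 8 had a difference above 0 and 4 below. They ran from -0.70 for Pbsn to 0.47 for Pmepa1, an inhibitor of TGF-beta signalling (adjusted p = 0.148), whose other element gave 0.021. Within polyamine metabolism, 3 of 6 measured genes were called. Sms, the spermine synthase, went the other way from Odc1 and Sbp and was higher in BALB/c (difference -0.68, SE 0.11, adjusted p = 0.00812). Sat1, which acetylates polyamines for export and breakdown, differed by -0.19 and at its other elements by -0.42 and -0.49, Azin1, the antizyme inhibitor, by 0.14 and Arg2, a mitochondrial arginase, by -0.047, none of them called.

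Genes of class I and II histocompatibility molecules and of antigen presentation, B2m among them, gave 2 called of 9 measured. H2-Ea encodes the alpha chain of the class II molecule E, and haplotypes b and q are known not to express it. It stood at -4.05, -3.11, -3.22 and -3.86 in C57BL/6 and at 1.04, 1.34, 1.01 and 1.30 in BALB/c. The pools were tight in both strains, and the difference was -4.73 (SE 0.20, adjusted p = 7.66e-07), with -4.55 at its other element, whose number lies at the spacing of repeated spots. Among the other strains DBA/2 had a mean of 1.19, FVB/N of -2.57 and 129X1/Sv of -3.27, so that DBA/2, which also carries haplotype d, was at the level of BALB/c and the other strains were low. H2-Eb1, the beta chain of the same molecule, differed by 0.22 (adjusted p = 0.482). H2-Q1, a class Ib gene, was at 0.32, 0.60, 0.33 and 0.27 in C57BL/6 and at -1.30, -0.78, -0.89 and -0.63 in BALB/c, higher in C57BL/6 by 1.28 (SE 0.15, adjusted p = 0.000736). Class I genes are close in sequence and can hybridize to each other's elements, so this value is uncertain as to the gene. B2m, the light chain of class I molecules, was at -1.24, -0.40, -0.39 and -0.38 in C57BL/6 and at -0.28, 0.23, 0.21 and -0.59 in BALB/c, with overlapping pools and a difference of -0.50 (adjusted p = 0.374). Its other elements differed by -0.67 (adjusted p = 0.093) and -0.93 (adjusted p = 0.0202), in the same direction.

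Interferon-stimulated genes showed no called member among 13 measured by limma, and 0 of them had an unadjusted p under 0.05. The range ran from -0.30 for Irf1, a transcription factor of the interferon response, to 0.21 for Gbp2, an interferon-induced GTPase. Of the 13 genes 11 had a difference below 0, beside 53% of all genes tested, with a median of -0.056. Of all 11159 elements tested by limma, 1578 had an unadjusted p under 0.05. Counts at that threshold, here and below, stand beside this share and are given for some of the lists only. Of 26 chemokines, cytokines and receptors, 2 were called. Ccl8, a chemokine that attracts monocytes, was higher in BALB/c (difference -1.24, SE 0.15, adjusted p = 0.0013) and Cx3cl1, the membrane-bound fractalkine, was higher in C57BL/6 by 0.43 (SE 0.098, adjusted p = 0.0447). Cx3cl1 was not called with the pool number as a block, nor without any 1 C57BL/6 pool or any 1 BALB/c pool (adjusted p from 0.0633 to 0.137). C1ra, a protease of the first complement component, was higher in C57BL/6 by 0.70 (SE 0.14, adjusted p = 0.0243), the called gene of 4 of complement, though not without C57BL/6 pool 2 or 3 or BALB/c pool 1, 2 or 4 (adjusted p from 0.0626 to 0.0902). Lyz2, the lysozyme of macrophages, was higher in BALB/c (difference -0.81, SE 0.13, adjusted p = 0.00468), and it was the sole called gene among 8 leukocyte markers, whose median difference was 0.014. It was not called with all 20 arrays in the fit (adjusted p = 0.0958). Aif1, of the same list, pointed the same way as Lyz2 without a call (-0.61, adjusted p = 0.0538). Of the 8 markers 3 had a difference below 0.

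Genes of surface antigens and of the epithelial barrier held the largest differences in favour of C57BL/6. Sprr2a1 encodes a small proline-rich protein of the cornified envelope. It was at 1.27, 1.02, 1.51 and 0.67 in C57BL/6 and at -2.19, -1.75, -2.29 and -2.28 in BALB/c, a difference of 3.24 (SE 0.18, adjusted p = 4.28e-06), or 9.48-fold. The Sprr2 genes are near-identical, and the element cannot tell them apart with certainty; the element of Sprr2h differed by 0.42 (adjusted p = 0.341). Upk1b, a tetraspanin of the urothelial surface, was higher in C57BL/6 by 1.15 (SE 0.16, adjusted p = 0.00252), and by 1.22 at its other element. These were the 2 called of 4 measured barrier genes, whose median per pool ran from 0.20 to 0.75 in C57BL/6 and from -1.08 to -0.59 in BALB/c. Bladder or urethral tissue also makes uroplakins, and its part in the result was not tested.

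Ly6e, a lipid-anchored antigen of lymphocytes and epithelia, was at 0.25, -0.17, -0.27 and 0.38 in C57BL/6 and at -2.69, -3.15, -3.37 and -2.98 in BALB/c. The difference was 3.09 (SE 0.18, adjusted p = 4.96e-06), or 8.53-fold, and 4.28 at a further element that is not at the spacing of repeated spots. Ly6e was lowest in BALB/c of all strains, with means of 0.92 in DBA/2, 0.0018 in FVB/N and 0.042 in 129X1/Sv. The 2 elements differ in size by more than their errors, although both are called in the same direction. Psca, the prostate stem cell antigen of the same family, was at -1.07, -1.46, -0.91 and -1.67 in C57BL/6 and at -1.22, -0.87, -1.69 and -0.87 in BALB/c, and its difference of -0.12 was not called (95% interval -0.59 to 0.36). Of its other elements, that at the spacing of repeated spots gave -0.028, and a further pair gave -0.98 (adjusted p = 0.172) and -1.08 (adjusted p = 0.173), outside that interval and not called, so that the elements of Psca disagree in size. Pate9, a neighbour of Pate4, was called higher in BALB/c (difference -0.60, SE 0.12, adjusted p = 0.023), but its 6 further elements were not called and ranged from -0.58 to 0.78. Pate9 was not called without C57BL/6 pool 1, 3 or 4 or BALB/c pool 3 or 4 (adjusted p from 0.053 to 0.0835), nor with all 20 arrays in the fit. Of 8 measured genes of the Ly6 and Pate families 3 were called, Ly6e, Pate4 and Pate9.

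Genes of xenobiotic and steroid metabolism were called in both directions, 3 of 15 higher in C57BL/6 and 1, Vnn1, higher in BALB/c. Vnn1, the pantetheinase that releases cysteamine from pantetheine, was at -2.61, -2.62, -2.47 and -3.31 in C57BL/6 and at 0.98, 0.83, 1.75 and 1.95 in BALB/c. No C57BL/6 pool came near a BALB/c pool, and the difference was -4.13 (SE 0.26, adjusted p = 1.05e-05), or 17.5-fold. FVB/N was also high, at 0.94, while 129X1/Sv and DBA/2 were low, at -3.07 and -2.53. The neighbouring cytochromes Cyp2b9 and Cyp2b10, which oxidize steroids and drugs, were both higher in C57BL/6, by 1.37 (SE 0.21, adjusted p = 0.00468) and 1.03 (SE 0.16, adjusted p = 0.00402). They are close in sequence and their elements may share signal, and Cyp2b9 was not called with all 20 arrays in the fit (adjusted p = 0.0581). Aldh1a1, which makes retinoic acid from retinal, was higher in C57BL/6 by 0.81 (SE 0.15, adjusted p = 0.0174), a call lost without C57BL/6 pool 3 or BALB/c pool 1 or 4 (adjusted p from 0.0544 to 0.063). Cyp4a12b, a fatty acid hydroxylase induced by androgen in the kidney and not one of these 15 genes, was at -1.31, -0.48, -0.040 and -2.11 in C57BL/6 and at 0.93, 0.97, 0.52 and 0.37 in BALB/c. Its difference was -1.68 (SE 0.37, adjusted p = 0.036), but its C57BL/6 pools were spread, with the Cy3 pools lower. It was not called without C57BL/6 pool 1 or any 1 BALB/c pool (adjusted p from 0.0638 to 0.121), nor with a robust estimate of the spread. A further element of Cyp4a12b, not at the spacing of repeated spots, was called in the same direction, at -1.28 (adjusted p = 0.0172).

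Of 24 measured genes of glutathione metabolism and oxidant defence, 4 were called, beside 3.11% of all genes. Gsto1, an omega-class glutathione transferase that reduces thiol adducts, was higher in C57BL/6 by 1.52 (SE 0.13, adjusted p = 7.61e-05). Slc7a11, the cystine transporter that supplies glutathione synthesis, was higher in BALB/c (difference -1.37, SE 0.14, adjusted p = 0.000263). Gstm2, a mu-class transferase, and Gpx8, a peroxidase of the endoplasmic reticulum, were higher in BALB/c as well, with differences of -0.60 and -0.58. Gstm2 was not called without C57BL/6 pool 2 or 4 or BALB/c pool 1, 2 or 3 (adjusted p from 0.058 to 0.0932). Gpx8 was not called without C57BL/6 pool 1 or 3 or BALB/c pool 4 (adjusted p from 0.0511 to 0.0568). Mgst1, a microsomal transferase that the study names, differed by 0.064 (95% interval -0.41 to 0.53), and by -0.15 and -0.13 at its other elements. The list's median was -0.14.

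Genes of cell division included 2 called of 39, both higher in C57BL/6. By limma 12 of the 39 had an unadjusted p under 0.05. Mis12 encodes a kinetochore protein. Its ratio was 0.79, 0.98, 0.72 and 0.74 in C57BL/6 and -2.45, -1.76, -2.19 and -1.68 in BALB/c, a difference of 2.83 (SE 0.17, adjusted p = 4.98e-06), or 7.1-fold. DBA/2 lay beside C57BL/6 with a mean of 1.17, while FVB/N (-1.99) and 129X1/Sv (-2.12) lay beside BALB/c. Pttg1 encodes securin, the inhibitor of separase. It was at 0.90, 1.12, 1.18 and 1.45 in C57BL/6 and at -0.76, -0.18, -0.36 and -0.76 in BALB/c (difference 1.68, SE 0.16, adjusted p = 0.000184), and it differed by 1.98 at a further element. Pttg1 was highest in C57BL/6 of the 5 strains. Markers of cycling cells did not pass and went both ways. The differences were 0.45 for Mki67 (adjusted p = 0.195), 0.34 for Top2a (adjusted p = 0.324) and 0.49 for Bub1b (adjusted p = 0.0696). They were -0.012 for Cdk1, -0.17 for Birc5 and -0.44 for Ccne1 (adjusted p = 0.139). Of the 39 genes 22 had a difference below 0, beside 53% of all genes tested, and the list's median was -0.017.

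Several of the largest differences belonged to genes in none of the pathways above. Rab6a, a GTPase of transport at the Golgi, was at 0.84, 0.96, 0.99 and 0.98 in C57BL/6 and at -1.52, -1.17, -1.26 and -1.48 in BALB/c (difference 2.30, SE 0.11, adjusted p = 1.67e-06), with 2.17 at a further element. As for Mis12, DBA/2 was beside C57BL/6 (mean 1.01) and FVB/N beside BALB/c (-1.35), with 129X1/Sv lower still (-2.07). Slc6a2, the noradrenaline transporter of sympathetic nerve endings, was at 1.22, 1.49, 1.22 and 1.85 in C57BL/6 and at -0.78, -1.07, -0.67 and -0.66 in BALB/c (difference 2.24, SE 0.16, adjusted p = 1.93e-05). It was the sole called gene of 6 measured markers of neurons and neuroendocrine cells, whose median difference was 0.063. Arl2bp, a partner of the GTPase ARL2, was at 0.51, 0.32, 0.20 and 0.42 in C57BL/6 and at -1.82, -1.92, -1.52 and -1.87 in BALB/c (difference 2.14, SE 0.12, adjusted p = 4.28e-06), and BALB/c alone was low among the 5 strains. Snhg11, a long RNA that hosts small nucleolar RNAs, differed by 1.79 (SE 0.17, adjusted p = 0.000166), Mfsd5, a molybdate transporter, by 1.69 (SE 0.13, adjusted p = 3.02e-05), and 2210407C18Rik by 2.79 (SE 0.19, adjusted p = 1.7e-05). In favour of BALB/c, Adgre5, the adhesion receptor CD97 of leukocytes, was at -1.30, -1.07, -0.81 and -1.30 in C57BL/6 and at 0.35, 0.51, 1.07 and 0.73 in BALB/c (difference -1.79, SE 0.17, adjusted p = 0.000166). Emb, or embigin, a chaperone of monocarboxylate transporters, differed by -1.55 (SE 0.22, adjusted p = 0.00287), and by -1.47 at an element at the spacing of repeated spots. Gm7714 was at -2.74, -2.41, -2.21 and -3.74 in C57BL/6 and at 0.10, -0.99, -0.96 and 0.29 in BALB/c (difference -2.38, SE 0.37, adjusted p = 0.00468), and in BALB/c its Cy3 pools were higher than its Cy5 pools.

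Protease inhibitors, proteases and matrix genes were called in few cases and in both directions. Of 20 inhibitors of serine proteases 3 were called. Spink5, a multi-domain Kazal inhibitor of the skin barrier, was higher in C57BL/6 by 1.59 (SE 0.14, adjusted p = 7.61e-05), while Spink8, above, and Serpinb1a, an inhibitor of neutrophil proteases, were higher in BALB/c, the last with a difference of -0.83 (SE 0.15, adjusted p = 0.013). Serpinb1a was not called without BALB/c pool 4 (adjusted p = 0.0517). Of 18 matrix metalloproteinases and their inhibitors 2 were called, the collagenase Mmp13 higher in C57BL/6 (difference 0.97, SE 0.20, adjusted p = 0.0243) and the stromelysin Mmp3 higher in BALB/c (difference -0.58, SE 0.11, adjusted p = 0.0137). Mmp13 was not called without C57BL/6 pool 1, 2 or 4 or BALB/c pool 1 or 4 (adjusted p from 0.0578 to 0.0733), nor with quantile normalization. Mmp3 was not called without BALB/c pool 2 (adjusted p = 0.0515), nor with all 20 arrays in the fit. The repeated spots of both were called in the same directions, at 0.87 for Mmp13 (adjusted p = 0.0404) and -0.74 for Mmp3 (adjusted p = 0.00532). Mmp7, matrilysin, a gene the study names, differed by 0.23 (95% interval -0.12 to 0.58) and by 0.48 at its other element (adjusted p = 0.284). Among 23 genes of fibroblasts and matrix, Mgp, which inhibits calcification, was higher in C57BL/6 by 0.98 (SE 0.14, adjusted p = 0.00352), and Col6a3, a chain of collagen VI, was higher in BALB/c (difference -0.74, SE 0.16, adjusted p = 0.0308), while its repeated spot was not called, at -0.63 (adjusted p = 0.311). Col6a3 was not called with the elements averaged by gene, nor without any 1 C57BL/6 pool or BALB/c pool 1, 2 or 4 (adjusted p from 0.0559 to 0.103).

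Of 23 actin regulators, 2 were called, both higher in BALB/c. Cap1, the adenylyl cyclase-associated protein that recycles actin monomers, was at -1.09 ± 0.16 in C57BL/6 and 0.10 ± 0.051 in BALB/c (SD, n = 4), a difference of -1.19 (SE 0.11, adjusted p = 0.000102). Crip1, a cysteine-rich LIM protein, differed by -1.24 (SE 0.20, adjusted p = 0.00532). C57BL/6 was the lowest of the 5 strains for both. Wnt4, a secreted signal of the Wnt family, was higher in BALB/c (difference -0.95, SE 0.14, adjusted p = 0.00427) and was the sole called gene among 31 of growth factor signalling. Kdr, the main receptor of vascular endothelial growth factor, was higher in BALB/c (difference -0.89, SE 0.19, adjusted p = 0.0301; -0.75 and not called at its repeated spot, adjusted p = 0.128) and was the sole called gene of 8 endothelial markers, but it was not called without any 1 C57BL/6 pool or BALB/c pool 4 (adjusted p from 0.0516 to 0.0863), nor with all 20 arrays in the fit or with elements averaged. Epcam, an adhesion molecule of epithelia, was higher in BALB/c (difference -0.44, SE 0.096, adjusted p = 0.0357), a call lost without any 1 C57BL/6 pool or BALB/c pool 2, 3 or 4 (adjusted p from 0.0647 to 0.115) and also with arrays scaled to 1 spread, quantile normalization or the pool number as a block. The other 8 luminal markers and the 4 basal markers were not called by limma. Of 4 markers of lymphocytes and plasma cells 0 were called and 2 had an unadjusted p under 0.05, and of 2 markers of Schwann cells and 1 of blood 0 were called and 0 had such a p. Of 2 measured epididymal genes Spink8 was called, and of 22 solute carriers Slc6a2 and Slc7a11.

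Lipid carriers were called in both directions, 2 of 13 in each. Crabp1, a carrier of retinoic acid, was higher in C57BL/6 by 0.90 (SE 0.20, adjusted p = 0.0373), as was Azgp1, while Rbp2, a cellular retinol-binding protein, and Fabp4, the fatty acid carrier of adipocytes, were higher in BALB/c, with differences of -0.91 (SE 0.14, adjusted p = 0.00502) and -0.75 (SE 0.15, adjusted p = 0.0238). The repeated spot of Rbp2 was not called, at -0.70 (adjusted p = 0.132). Crabp1 was not called without any 1 C57BL/6 pool or BALB/c pool 2 or 4 (adjusted p from 0.0636 to 0.11), nor with all 20 arrays in the fit. Fabp4 was not called without C57BL/6 pool 1, 3 or 4 or BALB/c pool 1, 2 or 4 (adjusted p from 0.0552 to 0.0865). Fabp4 was the called gene of 6 adipose genes. The medians of those 6 per pool ran from -0.48 to -0.043 in C57BL/6 and from -0.13 to 0.12 in BALB/c, so that the ranges overlapped. Car3, a carbonic anhydrase abundant in fat and muscle, was at -1.25, 0.027, -0.81 and -1.21 in C57BL/6 and at 0.16, -0.035, -0.000064 and 0.13 in BALB/c, without a call (-0.88, adjusted p = 0.0955). Scd1, a desaturase, pointed the other way at 0.69 (adjusted p = 0.0526). How much fat was left on the pools was not tested.

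Few genes of the respiratory chain passed the test. Of 20 genes of complex I, 17 had a difference below 0, beside 53% of all genes tested, with a median of -0.26, and Ndufb9, an accessory subunit, was called (difference -0.52, SE 0.12, adjusted p = 0.0405). Ndufb9 was not called without any 1 C57BL/6 pool or BALB/c pool 1, 2 or 4 (adjusted p from 0.0559 to 0.121), nor with arrays scaled to 1 spread, quantile normalization or all 20 arrays in the fit. Of 32 genes of complexes II to V, 25 were below 0 with a median of -0.15, and 0 were called by limma, while 9 had an unadjusted p under 0.05. For complex I the last number was 7 of 20. The median of complex I was -0.29 in the Cy3 pools and -0.18 in the Cy5 pools, and that of the other complexes -0.13 and -0.20. Per pool, the median of complex I ran from -0.30 to -0.098 in C57BL/6 and from -0.18 to 0.18 in BALB/c, where BALB/c pool 3 was within the range of C57BL/6. Skeletal muscle genes gave 0 of 12 called by limma and 4 with an unadjusted p under 0.05. Of these 12 genes 11 had a difference below 0, and the list's median was -0.22. Within the dyes that median was -0.47 in the Cy3 pools and -0.023 in the Cy5 pools. Of 11 smooth muscle genes 0 were called and 1 had an unadjusted p under 0.05, and for 27 genes of phosphoinositide binding and metabolism these numbers were 0 and 2. Ribosomal proteins gave 1 called of 44, Rpl26, higher in C57BL/6 by 0.65 (SE 0.11, adjusted p = 0.00727), though not with all 20 arrays in the fit (adjusted p = 0.197). Its other element differed by 0.32 and was not called (adjusted p = 0.263). Chaperones and secretory pathway genes gave 1 of 45, Kdelr3, a retrieval receptor of the endoplasmic reticulum, higher in BALB/c (difference -0.64, SE 0.12, adjusted p = 0.0153). It was not called without BALB/c pool 4 (adjusted p = 0.056).

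**Figure D4:**
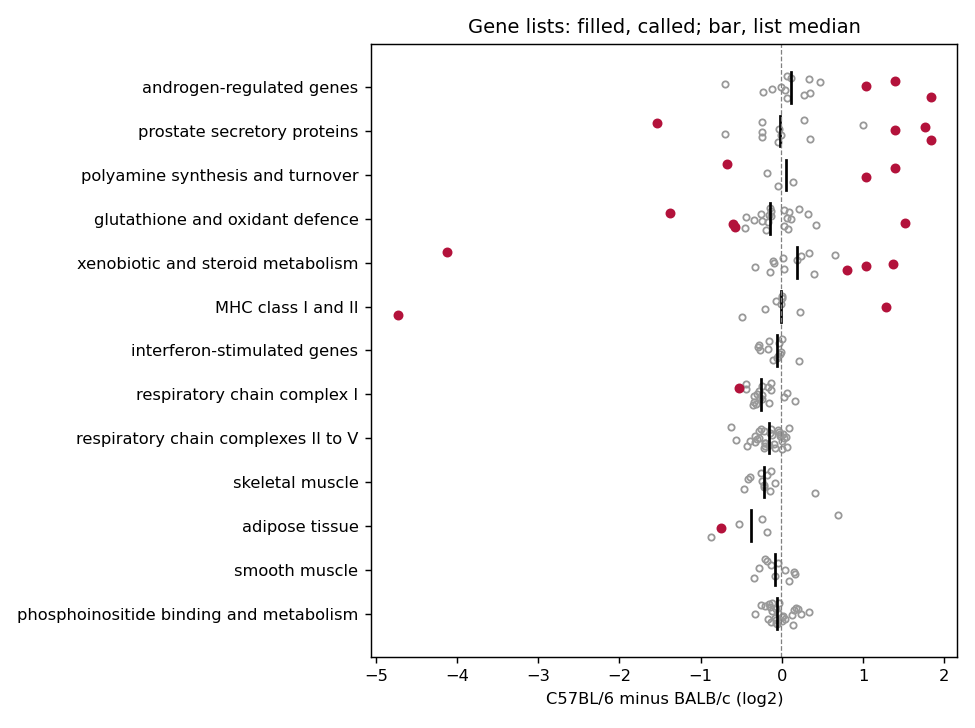
Difference C57BL/6 minus BALB/c (log2) for every measured gene of 13 lists, with filled points for called genes, open points for the others, a bar at the list median and a dashed line at the median of all genes. Called genes lie on both sides of 0 in 5 of the lists, and the bar of complex I stands at -0.26.

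Of the 19 genes that the study names and that had an element of their own, 8 were called, 5 higher in C57BL/6 (Pttg1, H2-Q1, Sbp, Odc1 and Azgp1) and 3 higher in BALB/c (Cap1, H2-Ea and Svs2). Since the study chose these genes on the same samples, the count is no independent evidence of their direction. The elements that stood for the others had differences between -0.50 for B2m and 0.35 for Clu, while other elements reached -1.08 for Psca and -0.93 for B2m, of which that of B2m was called. Clu, clusterin, an extracellular chaperone, was at -1.02, -1.78, 0.99 and -1.21 in C57BL/6 and at -0.87, -1.51, -1.32 and -0.72 in BALB/c, with C57BL/6 pool 3 far above the others. At its other spot Clu differed by -0.035. Fabp5, an epidermal fatty acid carrier, differed by -0.23, Apod, apolipoprotein D, by -0.26, Egf by -0.12, Cxcl12 by -0.078 (0.086 at its other element), Esr1, the estrogen receptor alpha, by -0.021, and Rbp4, the plasma carrier of retinol, by 0.29, none of them called. The other elements of Rbp4 pointed the opposite way, at -0.51 (adjusted p = 0.191) and -0.12, also without a call.

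The place of each strain among the 5 was described with the remaining strains, 129X1/Sv, FVB/N and DBA/2. C57BL/6 and BALB/c were each compared with the mean of these 3, in contrasts that share their arrays, and 3.85% of genes were called for C57BL/6 and 2.27% for BALB/c. Of the 99 genes called higher in C57BL/6 than in BALB/c, 32 differed from the other 3 strains in C57BL/6 alone, 22 in BALB/c alone, 7 in both in opposite directions, 1 in both in the same direction and 37 in neither. Of the 82 called higher in BALB/c, the numbers were 32, 22, 5, 2 and 21. C57BL/6 was the highest of the 5 strains in 62 of the 99 genes and BALB/c the lowest in 49, and both held in 26. BALB/c was the highest in 46 of the 82 and C57BL/6 the lowest in 57, and both held in 24. These genes were chosen for a difference between C57BL/6 and BALB/c on the same arrays, which favours both strains standing at the ends. The order of the strains over all genes tested was not counted, so these numbers describe the chosen genes only.

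Single genes showed each of these patterns. Cyp2b9 differed from the other 3 strains in neither, at 0.68 in C57BL/6 (adjusted p = 0.314) and -0.69 in BALB/c (adjusted p = 0.435). Svs2, Svs5 and Pate4 were apart in BALB/c, by 6.23 (adjusted p = 0.00537), 5.09 (adjusted p = 0.00344) and 3.75 (adjusted p = 0.00082) over the mean of the other 3 strains. Pools within those strains were spread, with SDs of 1.55 to 3.22 for Svs2, 0.86 to 2.45 for Svs5 and 0.33 to 1.85 for Pate4. C57BL/6 was not called against those strains for the same genes, at -0.37, -0.18 and -0.28. Ly6e and Arl2bp were low in BALB/c alone, with differences of -3.37 (adjusted p = 7.55e-12) and -2.01 (adjusted p = 7.55e-12). Slc6a2 and Pttg1 were high in C57BL/6 alone, by 2.29 (adjusted p = 2.84e-08) and 1.55 (adjusted p = 7.35e-08). Sprr2a1 was above the mean of the other 3 in C57BL/6, by 1.67, and below it in BALB/c, at -1.58, and both were called. Its mean in FVB/N, -1.68, lay near that of BALB/c, -2.13, while 129X1/Sv (-0.13) and DBA/2 (0.16) were higher. Azgp1 had the same form, at 1.20 and -0.64. Its means were -0.78 in FVB/N and -0.52 in DBA/2, beside -0.96 in BALB/c and 0.33 in 129X1/Sv. Spink8 passed for both strains in the same direction, 0.72 in C57BL/6 and 2.26 in BALB/c, since 129X1/Sv and FVB/N were low for it.

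**Figure D5:**
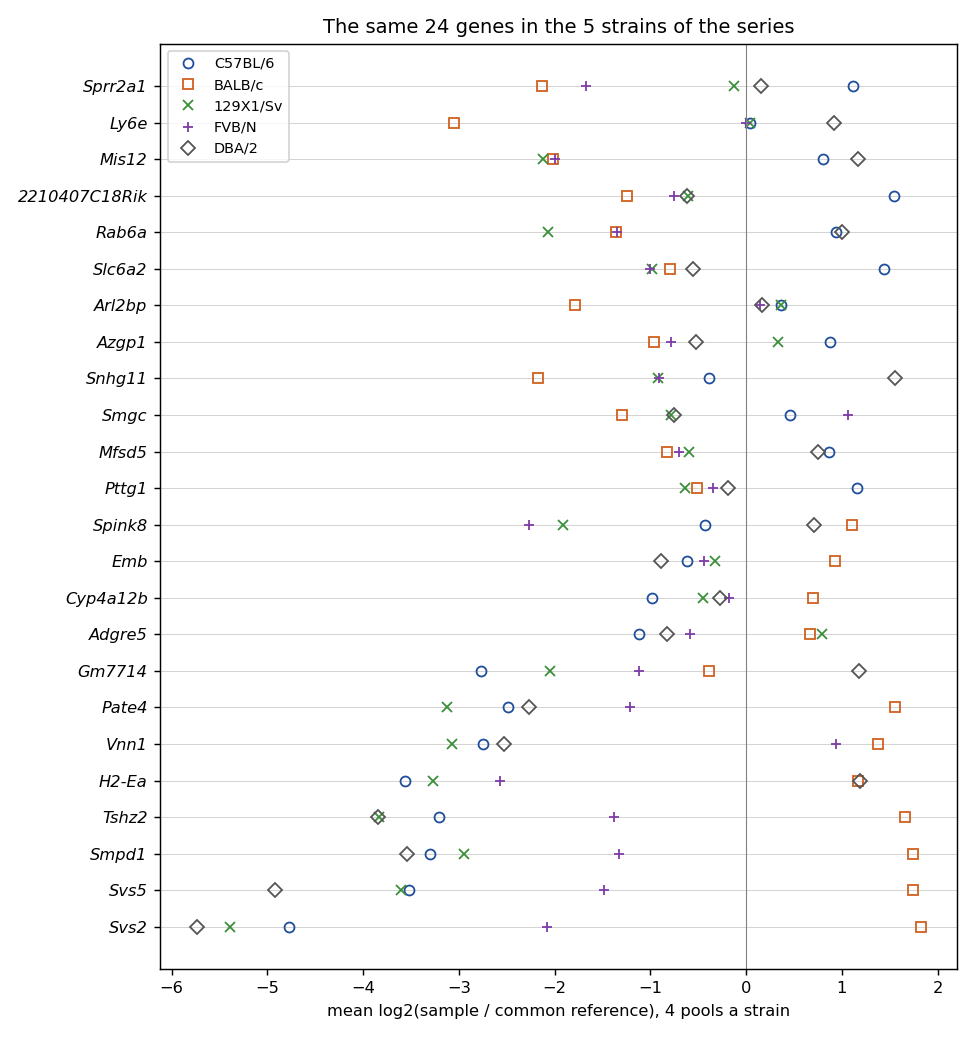
Mean log2 ratio of sample over common reference over 4 pools in each of the 5 strains, for the 24 genes of the plot of the largest differences. For Ly6e and Arl2bp the BALB/c mean stands alone on the left, and for H2-Ea the means of BALB/c (1.17) and DBA/2 (1.19) coincide.

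Called genes were also set beside their neighbours among the genes tested, by their order on the chromosomes of GRCm38.p6. Of 176 called genes with a place, 10 pairs were next to each other, 6 with the same direction and 4 with opposite directions. With 3.11% of all genes called some pairs arise by chance, and their number was not worked out. Pate4 and Pate9, and Cyp2b10 and Cyp2b9, were pairs of related genes with the same direction, though Pate9 averaged over its elements gave 0.0068. Mmp3 and Mmp8, a neutrophil collagenase, were neighbours with opposite directions, -0.58 and 0.47, as were Lyz2 (-0.81) and 9530003J23Rik (0.93, and 0.82 without a call at its other element). These pairs were picked after their values were seen.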

How the data were processed

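RNA from 20 prostate pools was measured on 2-colour cDNA arrays, and the 8 arrays of C57BL/6J and BALB/c pools were compared, as the labels name them. Per the methods, the authors scanned the arrays with GenePix, corrected each spot's median signal for its median local background, and applied a print-tip loess to every array. What they deposited is the log2 ratio of sample over common reference. Spot intensities and the removal of low-abundance spots were not used here, so signal over background is unknown.

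Of 11552 elements, 393 were left out because more than 3 of the 20 arrays lacked a value or a strain had fewer than 2, which left 11159. The platform annotation gave 8050 elements 1 gene symbol, as it writes it, and 672 several; 2830 were not in it. The most complete element stood for a gene, and among equals the one with the lowest number. H2-K1, H2-D1, Rps16 and Basp1 had no element of their own and are not analysed here. Gene order and promoters came from RefSeq tables of GRCm38.p6.

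The strains were compared in R 4.3.3 with limma 3.58.1 (lmFit, eBayes, two-sided), with Benjamini-Hochberg adjustment over all elements tested and a threshold of 0.05. SAM, the method of the study, rests on permutations and was not run. The test was checked on simulated data with known differences. Members, lists and the rule for named genes were chosen with earlier results of these data known. The rule took the 12 largest called differences in each direction without overlap of pools, the genes the study names, and called members of 39 lists, up to 4 a list, plus members a result turns on. The text also names list members that were not called, chosen after their values were seen.

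Pool numbers come from the labels. Deviations from the strain means correlated at 0.27, 0.151, 0.219 and 0.344 between pools of the same number, which also share the dye; pools of different number and the same dye correlated at 0.0974 to 0.342. With the pool number as a block 372 elements were called. Alternatives were filters, centring, scaling, quantile normalization, a dye term, averaging by gene, a robust spread, all arrays in 1 fit, a looser threshold and leaving out each pool; array weights and arrays of 1 dye were added after the data were seen.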

Additional observations from a re-analysis of the deposited data

Results flagged for a closer look

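In 3 of 138 groups of 4 pools, 1 pool stood apart from the other 3 by more than the 95% critical value of Dixon's test, and chance alone marks about 1 group in 20. Emb stood at 1.48 in BALB/c pool 2, with the other BALB/c pools between 0.665 and 0.795. B2m stood at -1.24 in C57BL/6 pool 1, with the other C57BL/6 pools between -0.395 and -0.381. Lyz2 stood at 0.0389 in C57BL/6 pool 4, with the other C57BL/6 pools between -0.347 and -0.293.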

How the results depend on the processing

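Counts of called elements moved with the pools, the threshold and a dye term. Leaving out each pool in turn gave 196 (without BALB/c pool 4) to 287 (without BALB/c pool 3) called elements in place of 311, 112 to 162 higher in C57BL/6 and 84 to 125 higher in BALB/c, and the same 196 to 287 with the same sign within both dyes. Without BALB/c pool 2 it was 200 and without C57BL/6 pool 1 it was 206. For C57BL/6 against the other 3 strains the range was 226 to 364 in place of 363, with 226 without C57BL/6 pool 2 and 239 without pool 1, and for BALB/c it was 150 to 224 in place of 225. A dye term gave 452 called elements in place of 311, with 240 higher in C57BL/6 in place of 179 and 212 higher in BALB/c in place of 132. Scaled arrays gave 360 and quantile normalization 384 for BALB/c against the other strains. At an adjusted p of at most 0.1, 471 elements were called, 214 of them higher in BALB/c, and 471 had the same sign within both dyes. Arrays of 1 dye alone, tried after the data were seen, gave 102 called in Cy3 (57 and 45 by direction) and 121 in Cy5 (73 and 48). With the pool number as a replicate block 372 were called, 206 higher in C57BL/6 and 166 in BALB/c, and of the named genes Epcam and Cx3cl1 lost their call. Averaged over its elements Pate9 changed sign, to 0.0068. Settings without a pool or a dye hold fewer arrays, and the cause of the other changes was not tested. Of 58 called named genes 36 kept their call under all 19 settings other than array weights and arrays of 1 dye. Signal over background, which limits the precision of dim spots, is unknown here.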

Other observations

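Among called genes that stand in none of the gene groups above, and that were picked here after their values were seen, several enzymes were higher in C57BL/6. Cbs, which makes cystathionine from homocysteine, differed by 1.23 (adjusted p = 0.000472), Asah2, a neutral ceramidase, by 1.01 (adjusted p = 0.000425), and Rnase1, a secreted ribonuclease, by 1.57 (adjusted p = 4.18e-05). The same direction was found for Chm, the escort protein that presents Rab GTPases for prenylation, at 1.35 (adjusted p = 7.61e-05), for Kel, an endopeptidase of the red cell surface, at 1.18 (adjusted p = 0.00027), and for Rgs2, a regulator of G protein signalling, at 1.04 (adjusted p = 0.00468). The immediate early gene Egr1 differed by 0.80 (adjusted p = 0.0308), but its other element was not called, at 0.64 (adjusted p = 0.203).

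Higher in BALB/c were Glo1, the glyoxalase that detoxifies methylglyoxal, at -1.20 (adjusted p = 7.51e-05), Bpgm, which makes bisphosphoglycerate in red cells, at -1.25 (adjusted p = 0.00346), and Plau, the urokinase-type plasminogen activator, at -1.34 (adjusted p = 0.0159). Tlr4, the receptor for bacterial lipopolysaccharide, stood at -0.81 (adjusted p = 0.00108), Tcte3, a dynein light chain, at -1.35 (adjusted p = 2.77e-05), and Ift81, a protein of transport within cilia, at -1.16 (adjusted p = 0.000906). Glo1 had a smaller difference at its other element, -0.51 (adjusted p = 0.036), and the other element of Tlr4 was not called, at -0.082 (adjusted p = 0.8). The pools of the strains did not overlap at the first element given for each of these genes. All p-values are those of limma, adjusted over all elements tested, and no group of these genes was tested.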
